A study of Homo sapiens with 20 samples.

Results

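The 400 probe sets described here read long noncoding and antisense RNAs of U2OS cells, a human osteosarcoma line. They were chosen by name and by signal: the annotated symbol starts with LINC, ends in -AS1, -AS2 or -IT1, or is MALAT1 or RPPH1, and the log2 signal reached 6 in at least 4 of the 20 arrays. The array holds 54675 probe sets, 2181 of them with a single symbol of this kind, and 24683 probe sets of any name passed the same signal rule. The 400 members stand for 304 genes: 123 LINC genes on 170 probe sets, 167 -AS1 genes on 204, 6 -AS2 genes on 9, 6 -IT1 genes on 6, MALAT1 on 10 and RPPH1 on 1. The same names lay below the signal rule on 1781 probe sets, and EPB41L4A-AS1 was left out. NEAT1 appeared only on probe sets annotated to several genes, which were not named, and RMRP and RN7SK were not analysed here.

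The study followed RNA after transcription was stopped, to compare the loss of transcripts between stressed and unstressed cells. Cells made hypoxic (oxygen below 0.1%), cells given tunicamycin at 2.5 ug/ml, cells given emetine at 100 ug/ml, cells carrying a short hairpin RNA against UPF1 (called Rent1 in the labels) and control cells were each sampled on 4 arrays: 1 at the addition of DRB (0 hr, 100 ug/ml) and the others 1.5 hr, 3 hr and 4.5 hr later. The stress lasted 3 hr before DRB. All cells grew in the same serum-containing medium, all but the 0 hr samples received DRB, and a single control series serves the 4 other conditions; a control hairpin is not given in the sources used here.

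A long noncoding RNA is a transcript with no known protein product; many are rare, stay in the nucleus and are short-lived, while a few, such as MALAT1 in the nuclear speckles, are abundant. A name ending in -AS1 or -AS2 marks a gene on the strand opposite to the gene it is named after, and -IT1 marks a transcript from within an intron. DRB blocks the kinase that lets RNA polymerase II elongate, so that existing RNA decays without replacement; RPPH1, the RNA subunit of the tRNA-processing enzyme RNase P, is made by RNA polymerase III. UPF1 is the helicase at the centre of nonsense-mediated decay, which removes transcripts whose reading frame ends early and depends on translation; emetine blocks translation elongation, and tunicamycin blocks N-glycosylation and so stresses the endoplasmic reticulum.

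The promoter windows of 6 members are shown because the results below turn on them: 4 that were higher in UPF1-depleted cells (ZNF790-AS1, DLGAP1-AS2, LINC00839 and THAP9-AS1) and 2 that fell after DRB and start next to a gene on the other strand (PSMA3-AS1 and RUSC1-AS1). Each run is the RefSeq sequence of GRCh38.p14 on the gene's own strand, 300 bases from 250 before the start to 50 after it. Capitals mark the motifs searched on both strands: the TATA box core TATAAA, the CCAAT box, the GC box core GGGCGG, the hypoxia response element core ACGTG, the CRE motif TGACGTCA, and TGATGNAA, where N is any base. ZNF790-AS1 lies at chr19:36797313-36797612 on the plus strand, DLGAP1-AS2 at chr18:3603487-3603786 on the plus strand and LINC00839 at chr10:42475241-42475540 on the plus strand. THAP9-AS1 lies at chr4:82900867-82901166, PSMA3-AS1 at chr14:58298088-58298387 and RUSC1-AS1 at chr1:155324127-155324426, these on the minus strand.
ZNF790-AS1: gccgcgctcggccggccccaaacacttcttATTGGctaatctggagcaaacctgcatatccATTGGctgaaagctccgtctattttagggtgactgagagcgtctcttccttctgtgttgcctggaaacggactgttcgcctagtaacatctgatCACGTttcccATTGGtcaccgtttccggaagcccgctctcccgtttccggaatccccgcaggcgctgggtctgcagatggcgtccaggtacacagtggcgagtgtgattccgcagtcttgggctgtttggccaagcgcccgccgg
DLGAP1-AS2: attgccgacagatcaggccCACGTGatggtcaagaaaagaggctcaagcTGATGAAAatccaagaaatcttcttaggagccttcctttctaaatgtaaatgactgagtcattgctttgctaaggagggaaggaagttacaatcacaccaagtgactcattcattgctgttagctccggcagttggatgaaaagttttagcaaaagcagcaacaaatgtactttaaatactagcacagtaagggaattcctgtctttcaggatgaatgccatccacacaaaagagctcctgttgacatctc
LINC00839: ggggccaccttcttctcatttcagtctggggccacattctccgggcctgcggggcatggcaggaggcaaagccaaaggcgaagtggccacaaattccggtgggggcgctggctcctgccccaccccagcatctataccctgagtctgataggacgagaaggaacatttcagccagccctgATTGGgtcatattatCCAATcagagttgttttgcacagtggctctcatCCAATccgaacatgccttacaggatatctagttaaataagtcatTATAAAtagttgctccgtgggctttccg
THAP9-AS1: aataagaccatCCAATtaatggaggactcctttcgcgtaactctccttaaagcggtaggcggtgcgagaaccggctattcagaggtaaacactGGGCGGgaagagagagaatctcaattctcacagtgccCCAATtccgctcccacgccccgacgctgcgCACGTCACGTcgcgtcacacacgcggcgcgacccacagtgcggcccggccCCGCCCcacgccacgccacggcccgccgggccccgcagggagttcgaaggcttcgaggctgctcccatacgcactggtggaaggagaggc
PSMA3-AS1: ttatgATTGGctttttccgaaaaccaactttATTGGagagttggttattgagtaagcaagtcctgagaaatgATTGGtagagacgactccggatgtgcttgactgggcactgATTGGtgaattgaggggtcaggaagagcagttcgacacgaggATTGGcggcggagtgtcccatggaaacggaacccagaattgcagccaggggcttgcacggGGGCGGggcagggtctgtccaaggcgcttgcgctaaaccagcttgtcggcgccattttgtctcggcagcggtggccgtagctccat
RUSC1-AS1: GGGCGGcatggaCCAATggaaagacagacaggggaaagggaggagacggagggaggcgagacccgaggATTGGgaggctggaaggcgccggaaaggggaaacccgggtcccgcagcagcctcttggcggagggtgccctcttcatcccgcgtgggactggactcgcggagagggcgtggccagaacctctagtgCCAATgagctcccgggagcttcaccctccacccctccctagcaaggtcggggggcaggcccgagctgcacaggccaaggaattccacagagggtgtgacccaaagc

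In these windows ZNF790-AS1 held 3 copies of CCAAT on the minus strand, PSMA3-AS1 held 5, and RUSC1-AS1 and LINC00839 held 3 each over both strands. DLGAP1-AS2 held 1 TGATGNAA and a palindrome that counts as ACGTG on both strands, and THAP9-AS1 held 2 copies each of the CCAAT box, the GC box core GGGCGG and ACGTG. Of all 35116 RefSeq windows of this length, 34.6% held CCAAT, 45% GGGCGG, 21.4% ACGTG, 11.5% TATAAA, 3.62% TGATGNAA and 1.85% TGACGTCA. Among the 226 members with a window the shares were 41.2% for CCAAT, 48.7% for GGGCGG, 27% for ACGTG, 11.1% for TATAAA, 1.77% for TGATGNAA and 2.65% for TGACGTCA. A match describes letters only and was not tested for binding. Of the 226 members with a window, 65 (28.8%) started within 1000 bases of a gene on the other strand that runs away from them, and 28 of these did so with the gene they are named after. Among genes with the same kinds of name below the signal rule, 149 of 946 (15.8%) did.

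The members were dim. Their mean log2 signal had a median of 6.63 (4.86 to 10.92), against 7.72 over all 24683 probe sets that passed the signal rule, and 203 of the 400 reached 6 in every array. Just inside the rule, 22 members reached 6 in exactly 4 arrays, with a fourth-highest value of 6.001 to 6.22; just outside, 13 probe sets reached it in 3 arrays, with a fourth-highest value of 5.77 to 5.999. For 4 members the arrays at or above 6 belonged to a single condition, emetine for CARD8-AS1 242521_at and LINC02210 and UPF1-depleted for LINC01963 and PCBP1-AS1 1568640_at, and for 6 to a single time, so their differences were partly set by the rule. U2OS markers were present, 9 of 10 mesenchymal genes having a mean log2 of 6 or more, against 5 of 15 markers of other cell types. The brighter UPF1 probe set read 111.5 ± 38.7 in UPF1-depleted cells (89.4 to 169.5) and 369.0 ± 19.02 in control cells (352.4 to 392.2; SD, n = 4 arrays each). The difference between the 3′ and 5′ ends of ACTB, a measure of RNA length on these 3′ arrays, was not equal between conditions: 2.04 ± 0.13 in hypoxia, 0.54 ± 0.11 in tunicamycin, 2.04 ± 0.19 in emetine, 1.24 ± 0.06 in UPF1-depleted and 0.55 ± 0.10 in control cells (log2, SD, n = 4 each). Its part in the results for hypoxia, emetine and UPF1 depletion was not tested.

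Each condition and time is 1 array, so the spread behind every test is the scatter of arrays about the time courses, and nothing in the labels says that the arrays are separate cultures. Level differences below are log2 differences from control at DRB addition, as fitted to the time courses of all arrays. They are not the plain difference between the 0 hr arrays and can depart from it. Slopes are log2 changes per hr after DRB addition. Levels and slopes each have a standard error from limma fitted over all 24683 probe sets. Adjusted p is Benjamini-Hochberg over all of them, with a threshold of 0.05. Arrays were made alike in their typical signal by the authors' processing, so a member that "rose" after DRB gained relative to the typical transcript of the array, and RNA that lasts longer than the typical transcript cannot be told apart from new RNA. In bulk RNA, fewer cells of a type and less RNA per cell cannot be told apart. Condition cannot be told apart from culture or array batch.

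RPPH1 rose after DRB in all 5 conditions. Its log2 signal, in the order of the 4 sampling times from 0 hr to 4.5 hr, was 6.97, 7.42, 8.37 and 9.02 in hypoxia, 7.10, 8.17, 9.14 and 9.44 in tunicamycin and 7.88, 8.53, 9.22 and 9.49 in emetine. It was 6.58, 7.08, 7.46 and 7.95 in UPF1-depleted cells, against 7.19, 7.85, 8.88 and 9.04 in control cells. Every time course went up at each step, the UPF1-depleted arrays were the lowest at every time and the emetine arrays the highest. The slopes were 0.47, 0.53, 0.37, 0.30 and 0.44 log2 per hr in hypoxia, tunicamycin, emetine, UPF1-depleted and control cells (SE 0.06 each; adjusted p = 0.000135, 6.57e-05, 0.00592, 0.00187 and 9.27e-05, limma). The emetine slope missed the threshold without the 0 hr array (adjusted p = 0.335) or the 4.5 hr array (0.0742), and the UPF1-depleted slope did so without the same times (0.0803 and 0.0702). None of the 4 slope differences from control passed the test; they ran from -0.14 in UPF1-depleted cells (adjusted p = 0.79) to 0.09 in tunicamycin (0.523). At DRB addition RPPH1 was 0.71 ± 0.17 higher in emetine (adjusted p = 0.0063, limma) and 0.66 lower in UPF1-depleted cells (estimate -0.66 ± 0.17, adjusted p = 0.0282). The emetine call ended without the 0 hr array of control (adjusted p = 0.125) or of emetine (0.0683). The UPF1-depleted call ended without any of 5 arrays, those of control at 0 and 4.5 hr and of UPF1-depleted cells at 0, 1.5 and 4.5 hr (adjusted p = 0.0508 to 0.263). Among the 10 measured protein subunits of RNase P and the related RNase MRP, none rose after DRB in control cells and 5 fell, where 13.6% of all probe sets rose and 18.4% fell.

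In hypoxia 46 members rose (11.5% of 400, against a background of 16.4% over all probe sets) and 63 fell (15.8%, background 15.2%), and in tunicamycin 52 rose (13%, 12%) and 43 fell (10.8%, 13.3%). In emetine 3 rose (0.75%, background 0.194%) and 14 fell (3.5%, 1.69%), and in UPF1-depleted cells 47 rose (11.8%, 9.26%) and 55 fell (13.8%, 17.4%). In control cells 59 rose (14.8%, background 13.6%) and 62 fell (15.5%, 18.4%). The largest gaps in ratio to all probe sets were those in emetine, which rest on few calls. With quantile normalization the rises and falls became 71 (17.8%, background 21.1%) and 57 (14.2%, 15.4%) in hypoxia, 114 (28.5%, 21.7%) and 47 (11.8%, 15%) in UPF1-depleted and 118 (29.5%, 24.9%) and 57 (14.2%, 17.3%) in control cells. With arrays centred on ribosomal protein probe sets they became 20 (5%, 2.28%) and 35 (8.75%, 11%) in tunicamycin. The balance of rises and falls thus moved with the scaling, among the members and over all probe sets. The member counts do not set aside those that passed the signal rule at a single time, whose rise or fall was partly set by the rule.

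TMEM132D-AS1, antisense to a neuronal membrane protein gene, was the other member whose rise passed the test in all 5 conditions. Its probe set 1561757_a_at read 8.62, 8.89, 9.16 and 9.38 in hypoxia, 8.78, 9.16, 9.22 and 9.48 in tunicamycin and 8.14, 8.43, 8.52 and 8.61 in emetine. It read 9.78, 9.99, 10.20 and 10.36 in UPF1-depleted cells, against 9.04, 9.31, 9.51 and 9.79 in control cells. The rise was smaller than that of RPPH1, 0.17, 0.14, 0.10, 0.13 and 0.16 log2 per hr in the same order (SE 0.02 each). It was not called in emetine without the 0, 3 or 4.5 hr array (adjusted p = 0.934, 0.101 and 0.256), the first of which left a slope of 0.06, nor in UPF1-depleted or tunicamycin cells without the 0 hr array (0.0763 and 0.16). The level itself separated the conditions, the UPF1-depleted arrays being the highest and the emetine arrays the lowest at every time, with level differences of 0.75 ± 0.09 (adjusted p = 0.000396, limma) and -0.85 ± 0.09 (1.98e-05) from control, both called without each array in turn.

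LINC00926 rose most steeply between 1.5 and 3 hr. Its probe set 230245_s_at read 6.23, 6.84, 8.38 and 8.76 in hypoxia, 6.54, 6.76, 8.31 and 8.42 in tunicamycin, 6.52, 7.31, 8.17 and 8.23 in emetine, 6.59, 6.64, 8.04 and 8.58 in UPF1-depleted and 6.57, 7.08, 8.71 and 8.56 in control cells. The 5 courses lay close together at every time, and no level or slope difference from control passed the test. The slopes were called in the 4 conditions other than emetine (0.48 to 0.61 ± 0.11), but only in hypoxia without each array in turn: the call ended in UPF1-depleted cells without 4.5 hr (adjusted p = 0.115) and in tunicamycin (0.142) and control cells (0.116) without 0 hr. LINC00942 was at or below 4.585 at 0 hr in every condition and reached 6.68, 6.22, 5.82, 6.75 and 7.16 at 4.5 hr in hypoxia, tunicamycin, emetine, UPF1-depleted and control cells. It passed the signal rule through its 4.5 hr arrays alone, so the rule itself required high late values, and no test is given for it. Leaving LINC00942 out, 13 probe sets rose in the 4 conditions other than emetine, among them RPPH1, both of TMEM132D-AS1 and both of LINC00926. The share of all probe sets that rose in these 4 conditions was not counted, so this count has no background beside it.

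**Figure D1:**
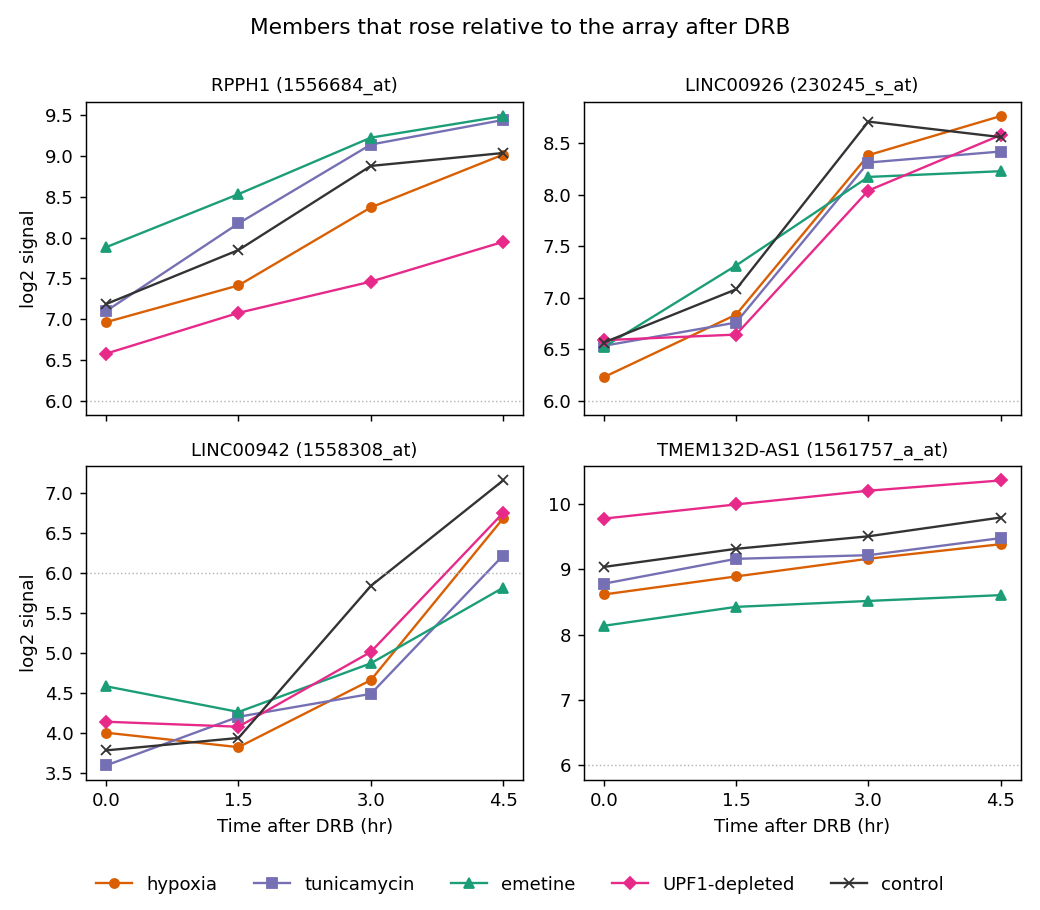
Log2 signal (vertical axis) of 4 members against hours after DRB (horizontal axis), 1 point per array, 1 line per condition; the dotted line marks the signal rule at 6. RPPH1 and TMEM132D-AS1 climb at every step in all 5 conditions, LINC00926 climbs mostly between 1.5 and 3 hr, and LINC00942 stays at or below 4.585 at 0 hr and at or above 5.82 at 4.5 hr.

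Some members lost most of their signal in the first 1.5 hr. LINC02249 1569476_at read 7.64, 5.56, 3.95 and 3.75 in hypoxia, 7.64, 4.03, 3.91 and 3.80 in tunicamycin and 6.82, 4.72, 3.57 and 3.55 in emetine. It read 7.31, 4.87, 3.73 and 3.67 in UPF1-depleted cells, against 7.93, 4.29, 3.88 and 3.53 in control cells. Every array at 0 hr lay above 6 and every later one below it, with most of the loss over by 1.5 hr in tunicamycin and control cells. The probe set passed the signal rule through its 0 hr arrays alone, so the rule itself required high early values, and no test is given for it. A second LINC02249 probe set, 230861_at, which passed the rule at several times, read 6.11, 6.23, 6.08 and 5.59 in control cells and had no such early loss there. In tunicamycin 230861_at fell by -0.32 ± 0.04 log2 per hr (adjusted p = 0.000128, limma), called without each array in turn. In all 5 conditions 5 probe sets lost at least 1 log2 by 1.5 hr. LINC02249 and ZNF143-AS1 passed the signal rule at 0 hr alone, and the other 3 were those of LINC01355, LINC00662 (242663_at) and MALAT1 (224558_s_at). The share of all probe sets with such a loss in all 5 conditions was not counted. The numbers of members with such a loss were 11 in hypoxia (background 3.54%), 25 in tunicamycin (5.35%), 13 in emetine (2.39%), 20 in UPF1-depleted (4.21%) and 20 in control cells (5.38%), which is 2.75%, 6.25%, 3.25%, 5% and 5% of the members. Gains of at least 1 log2 over the same interval were fewer, with 2 members in hypoxia (background 0.174%), 3 in tunicamycin (0.105%), 0 in emetine (0.0648%), 1 in UPF1-depleted (0.0527%) and 5 in control cells (0.551%). These losses and gains rest on 1 array a side and have no replicate check. The loss counts do not set aside members that passed the signal rule at 0 hr alone, such as LINC02249 1569476_at and ZNF143-AS1. Losses of such members were partly set by the rule.

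RUSC1-AS1, which starts head to head with RUSC1, a gene for an adaptor protein of signalling and transport, had a called fall in every condition except emetine. On 230256_at it read 8.60, 8.06, 6.50 and 5.30 in hypoxia, 9.07, 6.47, 4.69 and 4.53 in tunicamycin, 8.70, 9.37, 8.73 and 7.96 in emetine, 8.88, 7.37, 5.48 and 5.13 in UPF1-depleted and 8.81, 6.72, 5.03 and 5.04 in control cells. All 5 conditions began close together, and from 1.5 hr the emetine arrays lay above all others. The slopes were -0.76, -1.02, -0.19, -0.87 and -0.87 log2 per hr in hypoxia, tunicamycin, emetine, UPF1-depleted and control cells (SE 0.17), of which the emetine slope was not called (adjusted p = 0.585). The slope difference between emetine and control cells, 0.68 ± 0.21, missed the threshold (adjusted p = 0.0562, limma). None of the called slopes held without the 0 hr array (adjusted p = 0.059 in hypoxia, 0.213 in tunicamycin, 0.134 in UPF1-depleted and 0.213 in control cells), where the tunicamycin and control slopes were -0.64 and -0.56; the hypoxia call also ended without 4.5 hr (0.119). No fall was called for RUSC1 itself: its slopes were 0.08 ± 0.03 in tunicamycin (adjusted p = 0.0342, limma), 0.01 ± 0.03 in UPF1-depleted (0.726) and 0.01 ± 0.03 in control cells (0.774), with no call in hypoxia (0.994). A second RUSC1-AS1 probe set, 1552862_at, had a called fall in UPF1-depleted cells alone (-0.22 ± 0.06, 0.018; 0.387 without the 0 hr array, and -0.34 without the 4.5 hr array).

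PSMA3-AS1, antisense to a gene for a core subunit of the proteasome and head to head with ARID4A, fell in all 5 conditions. Its probe set 241774_at read 7.80, 7.48, 6.79 and 5.58 in hypoxia, 8.37, 6.88, 5.58 and 4.96 in tunicamycin, 8.02, 7.21, 5.48 and 5.21 in emetine, 7.78, 7.16, 6.09 and 5.34 in UPF1-depleted and 8.13, 7.05, 5.60 and 5.74 in control cells. The emetine array was the lowest at 3 hr, by a narrow margin, and lay among the others at the other times. The slopes were -0.49, -0.77, -0.68, -0.56 and -0.57 log2 per hr (SE 0.10; adjusted p = 0.00323, 0.000249, 0.00478, 0.00134 and 0.000977). The tunicamycin slope kept its call without each array in turn, while the hypoxia slope lost it without 4.5 hr (adjusted p = 0.164), the emetine slope without 0 hr (0.22) or 4.5 hr (0.0548), the UPF1-depleted slope without 4.5 hr (0.0554) and the control slope without 0 hr (0.11). The remaining probe set, 225724_at, had no slope call in any condition. In all, 9 probe sets fell in all 5 conditions, those of LINC-PINT, LINC01410, NPTN-IT1, NUTM2B-AS1 (235730_at), PCBP1-AS1 (235482_at), PSMA3-AS1 on 2 probe sets, PSMD6-AS2 and SSBP3-AS1, and 24 fell in the 4 conditions other than emetine, these 9 among them and GABPB1-AS1, which passed the signal rule at 0 hr alone, left out. The shares of all probe sets that fell in all 5 or in these 4 conditions were not counted, so these counts have no background beside them. Among the 24 was CARD8-AS1 242521_at, which passed the signal rule through emetine arrays alone. Its place in that count was thus partly set by the rule.

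Of the 6 intronic transcripts, 3 had a called fall in hypoxia, tunicamycin, UPF1-depleted and control cells alike. In the same order 15.2%, 13.3%, 17.4% and 18.4% of all probe sets fell. The share of all probe sets that fell in each of these conditions at once was not counted. ASAP1-IT1, from a gene for a regulator of the actin cytoskeleton, read 8.49, 7.60, 6.01 and 5.76 in hypoxia, 8.86, 6.11, 5.65 and 5.11 in tunicamycin, 8.60, 7.51, 5.95 and 5.62 in emetine, 9.11, 7.19, 5.72 and 5.75 in UPF1-depleted and 8.88, 6.23, 5.71 and 5.42 in control cells. Its slopes were -0.65, -0.78, -0.70, -0.77 and -0.73 log2 per hr (SE 0.18), called in every condition except emetine (adjusted p = 0.0749) and in none without the 0 hr array (0.245, 0.592, 0.363 and 0.579 in hypoxia, tunicamycin, UPF1-depleted and control cells, with slopes of -0.61, -0.33, -0.48 and -0.27); the hypoxia call also ended without 4.5 hr (0.0886). No fall was called for ASAP1, at 0.07 ± 0.03 in control cells (0.11) and 0.11 ± 0.03 in tunicamycin (0.0357). NPTN-IT1, from the gene of the adhesion protein neuroplastin, fell in all 5 (-0.71, -0.70, -0.94, -0.80 and -0.56 ± 0.19), and in each condition the call ended without the 0 hr array (adjusted p = 0.116, 0.626, 0.742, 0.192 and 0.835), with slopes of -0.37 in tunicamycin and -0.14 in control cells. Its calls also ended without hypoxia 4.5 hr (0.126), emetine 3 hr (0.0662) or 4.5 hr (0.144), UPF1-depleted 4.5 hr (0.0659) and control 3 hr (0.0748), and the slopes were -1.16 and -1.03, still called, without tunicamycin 4.5 hr and control 4.5 hr. RUNX1-IT1, from the gene of a blood cell transcription factor, fell in hypoxia, tunicamycin, UPF1-depleted and control cells (-0.49, -0.39, -0.43 and -0.45 ± 0.12), again in none without 0 hr (0.418, 0.793, 0.647 and 0.326; slopes of -0.25, -0.13, -0.16 and -0.34), nor in tunicamycin (0.175) or control cells (0.0757) without 4.5 hr. Without its 4.5 hr array the UPF1-depleted slope was -0.70, still called. In emetine RUNX1-IT1 began at 5.46, against 7.25 in control cells.

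A further set of members fell in hypoxia, UPF1-depleted and control cells with no called fall in emetine. ZNF407-AS1 read 8.47, 8.67, 8.59 and 8.50 in emetine, against 8.68, 8.44, 7.73 and 7.40 in control cells. LINC02693 228146_at read 7.46, 7.60, 7.54 and 7.54 in emetine, against 7.28, 7.03, 6.12 and 5.78 in control cells. In both the groups differed little at 0 hr and stood apart at 3 and 4.5 hr. The slope differences were 0.30 ± 0.04 for ZNF407-AS1 (adjusted p = 0.000677, limma), 0.37 ± 0.05 for LINC02693 (0.000244), 0.33 ± 0.05 for LINC01128 1557055_s_at (0.000582) and 0.23 ± 0.03 for KRT10-AS1 (0.000894), and each kept its call without any single array. NUTM2B-AS1 229318_at differed by 0.33 ± 0.06 (0.0022), which missed the threshold without the 4.5 hr emetine array (0.07). Other probe sets of these genes differed: NUTM2B-AS1 235730_at fell in emetine (-0.83 ± 0.14, 0.0108; 0.171 without 0 hr and 0.152 without 4.5 hr), and LINC02693 238167_at had a slope difference of -0.13 ± 0.05 (0.126). The other 3 probe sets of LINC01128 had no slope call in hypoxia, emetine, UPF1-depleted or control cells. In tunicamycin ZNF407-AS1 and LINC01128 1557055_s_at fell too, less steeply (-0.13 ± 0.04, adjusted p = 0.0266, and -0.14 ± 0.04, 0.021, limma). Neither call held without the 0 hr array (0.174 for ZNF407-AS1; -0.22 and 0.066 for LINC01128) or the 4.5 hr array (0.329 and 0.131). LINC02693 228146_at had a slope of -0.06 in tunicamycin (0.286) and NUTM2B-AS1 229318_at one of 0.04 (0.605), while KRT10-AS1 rose by 0.09 ± 0.03 (0.0461; 0.06 and 0.656 without the 0 hr array, and 0.304 without the 4.5 hr array). The within-condition slopes of ZNF407-AS1 were -0.32, 0.00, -0.33 and -0.30 ± 0.04 in hypoxia, emetine, UPF1-depleted and control cells, those of LINC02693 -0.31, 0.01, -0.34 and -0.36 ± 0.04, and those of LINC01128 -0.36, -0.04, -0.31 and -0.37 ± 0.04. Their falls in hypoxia, UPF1-depleted and control cells were called without each array in turn. PSMD6-AS2, antisense to a gene for a regulatory subunit of the proteasome, went the other way: it read 7.99, 7.32, 5.91 and 5.54 in emetine, against 6.79, 6.58, 6.20 and 6.19 in control cells, a slope difference of -0.44 ± 0.06 (adjusted p = 0.00072).

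Over all members, the slope in emetine was higher than in control cells for 25 (background 11.7%) and lower for 9 (2.04%), and 5 of these 34 calls held without each array in turn. These are 6.25% and 2.25% of the 400. With quantile normalization the counts were 27 (6.75%, background 10.4%) and 22 (5.5%, background 4.46%). Of the 15 antisense or intronic genes with such a call and a measured partner, the gene they are named after was called in the same direction for 4, in the opposite direction for 2 and not called for 9. Over all probe sets 11.7% had a called higher slope and 2.04% a called lower one. ZNF407 differed by 0.04 ± 0.08 (adjusted p = 0.792, limma) and KRT10 by 0.03 ± 0.04 (0.601). PSMD6 differed by 0.13 ± 0.04 (0.0464), opposite to PSMD6-AS2.

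**Figure D2:**
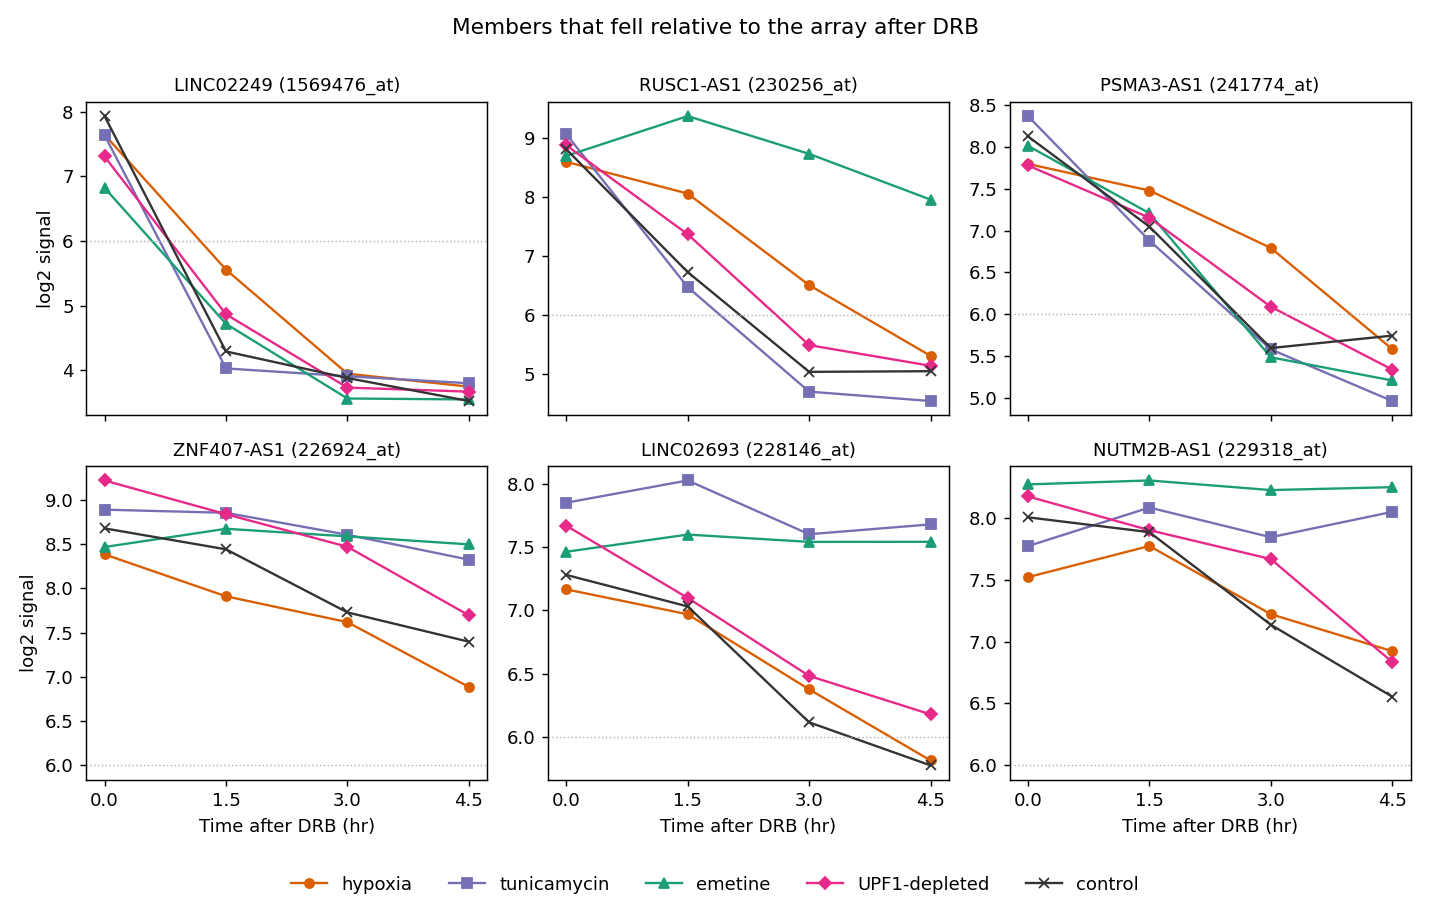
Log2 signal (vertical axis) of 6 members against hours after DRB (horizontal axis), 1 point per array, 1 line per condition; the dotted line marks the signal rule at 6. PSMA3-AS1 has a called fall in every condition and RUSC1-AS1 in all but emetine, and ZNF407-AS1, LINC02693 and NUTM2B-AS1 end highest in tunicamycin and emetine. LINC02249 falls in every condition, but no test is given for 1569476_at, which passed the signal rule at 0 hr alone.

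MALAT1 gave different courses on its 10 probe sets. The probe set 224558_s_at read 10.44, 8.98, 8.65 and 8.50 in hypoxia, 10.12, 8.48, 8.58 and 8.39 in tunicamycin, 9.74, 8.35, 7.88 and 7.79 in emetine, 10.00, 8.81, 8.41 and 8.11 in UPF1-depleted and 10.19, 8.51, 8.02 and 8.18 in control cells. It lost 1.47, 1.63, 1.39, 1.19 and 1.69 log2 in the first 1.5 hr in that order, and the 5 conditions stayed close, with no level or slope difference from control past the test. The probe set 224559_at of the same transcript read 10.14, 10.44, 10.43 and 10.82 in hypoxia, 10.59, 10.14, 10.40 and 10.08 in tunicamycin, 10.37, 8.99, 10.43 and 10.14 in emetine, 11.10, 10.60, 10.50 and 11.06 in UPF1-depleted and 10.53, 10.63, 10.86 and 10.83 in control cells. It showed no such loss in hypoxia or control cells, and its single low array was emetine at 1.5 hr. From 0 to 4.5 hr 226675_s_at gained 1.12 log2 in UPF1-depleted cells and 228582_x_at gained 1.49 in hypoxia, while 224558_s_at lost 1.94, 1.73, 1.95, 1.89 and 2.01 in hypoxia, tunicamycin, emetine, UPF1-depleted and control cells. In tunicamycin every probe set read lower at 1.5 hr than at 0 hr, with changes from -0.15 on 228582_x_at to -1.63 on 224558_s_at. In each of the other conditions some rose and some fell over that interval. These changes rest on a single array at each time. Of the 10 probe sets, 2 were called in the level comparisons. The first, 224568_x_at, was lower in hypoxia (-0.95 ± 0.19, adjusted p = 0.00919, limma; 0.0689 without the control 0 hr array) and in emetine (-0.91 ± 0.19, 0.00213; -0.64 and 0.133 without the emetine 0 hr array). The other, 223940_x_at, was lower in hypoxia (-0.92 ± 0.20, 0.0143; 0.0982 without control 0 hr and 0.211 without hypoxia 0 hr) and in emetine (-1.01 ± 0.20, 0.0017, called without each array). The values for MALAT1 thus differed with the probe set, and where each lies on the transcript was not analysed here.

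**Figure D3:**
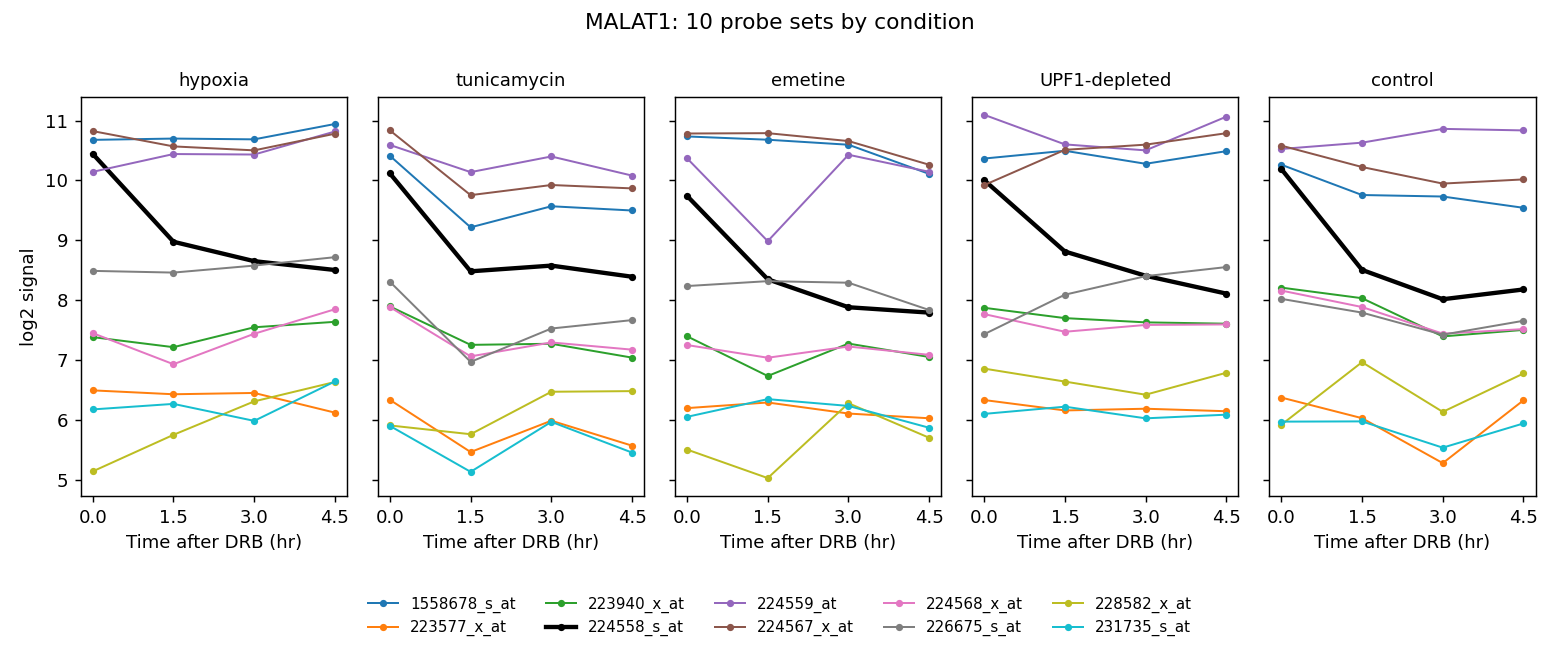
Log2 signal (vertical axis) of the 10 MALAT1 probe sets against hours after DRB (horizontal axis), 1 panel per condition and 1 point per array. The thick black line, 224558_s_at, lies between 9.74 and 10.44 at 0 hr and between 8.35 and 8.98 at 1.5 hr over the panels, and no other probe set does so in every condition.

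A group of lncRNAs was higher in UPF1-depleted cells, from DRB addition through the last array. ZNF790-AS1, next to a zinc finger gene, read 8.44, 8.46, 8.95 and 8.79 in UPF1-depleted cells, against 6.47, 6.12, 5.70 and 5.77 in control cells. Every UPF1-depleted array lay well above every control array. The level difference was 2.04 ± 0.16, 4.10-fold (adjusted p = 3.86e-05, limma). In hypoxia, tunicamycin and emetine the same probe set differed from control by -0.15, 0.35 and 0.21 at DRB addition, none of them called. After DRB its slope in tunicamycin was higher than in control cells by 0.29 log2 per hr, so those groups moved apart with time. That slope difference was called, but not without each array in turn. All 4 comparisons share the control arrays.

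LINC02864 was higher on both of its probe sets. On 1561514_at it read 7.42, 7.52, 7.72 and 7.79 in UPF1-depleted cells, against 5.58, 5.87, 5.70 and 5.74 in control cells, 3.34-fold at DRB addition (1.74 ± 0.13, adjusted p = 3.58e-05, limma). On 1569264_at the difference was 1.33 ± 0.13 (0.000125). On neither probe set did the groups overlap. LINC02864 was also higher in emetine, by 0.76 ± 0.13 (0.000639) and 1.16 ± 0.13 (3.54e-05), the first of which missed the threshold without the control 0 hr array (0.0547).

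DLGAP1-AS2, antisense to a gene for a scaffold protein of synapses, read 8.42, 8.27, 8.13 and 7.92 on 223974_at in UPF1-depleted cells, against 7.12, 6.70, 6.59 and 6.89 in control cells. Every UPF1-depleted array lay above every control array. The difference was 1.48 ± 0.16 (2.79-fold, adjusted p = 0.000223, limma), and 1.42 ± 0.18 on 1560019_at (0.000487). LINC00513 read 8.42, 8.53, 8.73 and 8.68, against 7.08, 7.39, 7.39 and 7.41 in control cells (1.28 ± 0.11, adjusted p = 6.52e-05). LINC00839, a bright member, read 10.87, 10.69, 10.79 and 10.64, against 9.87, 9.20, 9.09 and 9.15 in control cells (1.17 ± 0.13, 0.000286). In both, the lowest UPF1-depleted array exceeded the highest control array. Outside the naming rule, and chosen after their values were seen because their calls held without each array, LINC02035 was 1.09 ± 0.16 higher (0.00144) and SCAMP1-AS1 0.97 ± 0.13 higher (0.000693); SCAMP1 itself differed by 0.08 ± 0.09 (0.608).

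THAP9-AS1 read 9.85, 9.35, 9.35 and 9.13 in UPF1-depleted cells, against 8.74, 8.21, 7.62 and 7.88 in control cells. The groups did not overlap. It was 1.15 ± 0.20 higher (adjusted p = 0.0033, limma), which missed the threshold without the 0 hr array of control (0.0958) or of UPF1-depleted cells (0.0881). It was also higher in emetine (1.25 ± 0.20, 0.000383, called without each array) and in tunicamycin (1.01 ± 0.20, 0.0196; 0.237 without control 0 hr, 0.129 without tunicamycin 0 hr and 0.0652 without tunicamycin 1.5 hr), and differed by 0.25 ± 0.20 in hypoxia (0.456).

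At the deposited scaling fewer members were called lower than higher in UPF1-depleted cells, though not when arrays were centred on ribosomal protein probe sets. LINC01279 read 5.32, 5.48, 5.64 and 5.49 in UPF1-depleted cells, against 6.51, 6.96, 7.21 and 7.02 in control cells. The groups did not overlap, and the difference was -1.27 ± 0.19 (2.42-fold lower, adjusted p = 0.00146, limma). LOXL1-AS1, antisense to the gene of an enzyme that cross-links elastin, read 7.61, 7.77, 7.80 and 7.65 in UPF1-depleted cells, against 8.73, 9.51, 9.19 and 9.68 in control cells. It was lower by 1.21 (estimate -1.21 ± 0.21, adjusted p = 0.00363), a call that ended without the UPF1-depleted 0 hr array (0.126), and LOXL1 was lower too (-0.63 ± 0.10, 0.00224).

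In all, 43 members were higher in UPF1-depleted cells (10.8% of 400; background 10.6%) and 24 lower (6%; background 3.57%), so the share of higher members was close to that of all probe sets at this scaling. With arrays centred on ribosomal protein probe sets, which moved the median of all probe sets by -0.13 log2, the counts were 31 higher (7.75%, background 4.78%) and 36 lower (9%, background 6.26%). Of the 67 calls, 13 held without each array in turn, 11 of them higher. Among the 11 was PCBP1-AS1 1568640_at, which passed the signal rule through UPF1-depleted arrays alone, so its higher level was partly set by the rule. The count of 43 does not set such members aside. No slope difference between UPF1-depleted and control cells passed the limma test among the members (background 0.0162% higher and 0.0081% lower), and 25 had an unadjusted p under 0.05. The largest by the test statistic was that of ZNF790-AS1, 0.27 ± 0.06 log2 per hr (adjusted p = 0.2). Of 16 antisense or intronic genes with a level call and a measured partner, the partner was called in the same direction for 2, in the opposite direction for 0 and not called for 14. Over all probe sets 10.6% were called higher and 3.57% lower in this comparison.

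**Figure D4:**
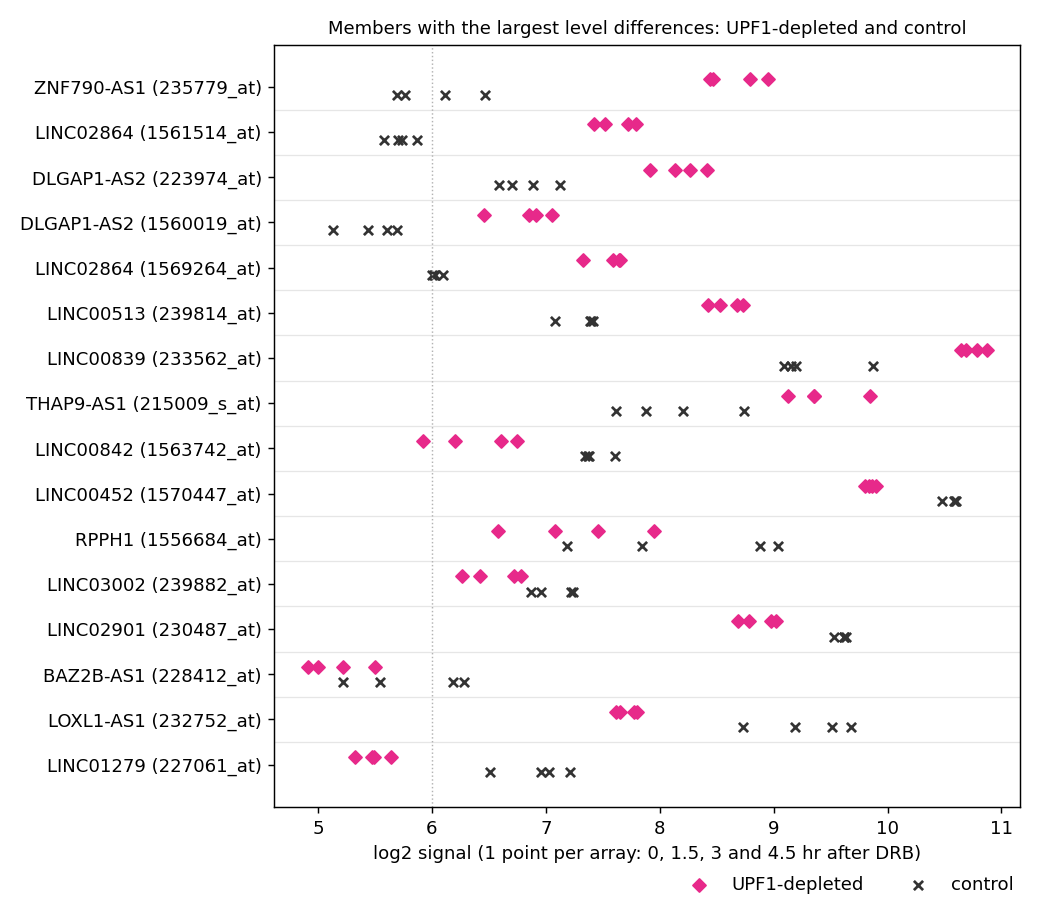
Log2 signal (horizontal axis) of the 8 highest and 8 lowest called members (vertical axis) in the 4 UPF1-depleted arrays (diamonds) and the 4 control arrays (crosses); the dotted line marks the signal rule at 6. ZNF790-AS1 and LINC02864 show the widest gaps, the arrays of RPPH1 and BAZ2B-AS1 overlap between the groups, and those of the other 14 probe sets do not. The members shown were picked by their difference in these same arrays, so their separation is partly set by the choice. The share of all probe sets without overlap was not counted.

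Level calls were most numerous in emetine among the 4 conditions set against control. LINC01711 read 6.20, 6.36, 6.25 and 6.16 in emetine, against 8.33, 8.52, 8.70 and 8.40 in control cells. The groups did not overlap, and the difference at DRB addition was -2.15 ± 0.15 (4.45-fold lower, adjusted p = 1.33e-06, limma). In hypoxia, tunicamycin and UPF1-depleted cells LINC01711 differed by -0.38, -0.05 and -0.04, with no call. ZNF674-AS1, next to a zinc finger gene, read 6.87, 7.07, 7.17 and 7.45 in emetine, against 8.49, 8.69, 8.27 and 8.59 in control cells (-1.66 ± 0.14, 5.2e-06). CCDC18-AS1 read 6.59, 6.72, 6.49 and 6.42, against 8.32, 7.93, 8.05 and 7.58 in control cells on 227074_at (-1.62 ± 0.16, 1.27e-05). Neither pair of groups overlapped. CCDC18 differed by 0.29 ± 0.16 (0.161), and a second CCDC18-AS1 probe set, 230073_at, by -0.28 ± 0.24 (0.364).

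SH3PXD2A-AS1, antisense to the gene of a scaffold protein of invasive cell protrusions, read 4.60, 4.43, 4.43 and 4.92 in emetine, against 6.06, 6.64, 6.38 and 6.68 in control cells (-1.74 ± 0.27, adjusted p = 0.000299, limma). LOXL1-AS1 read 7.08, 7.76, 7.54 and 7.67, against 8.73, 9.51, 9.19 and 9.68 in control cells (-1.62 ± 0.21, 9.91e-05). Their named partners were lower as well, SH3PXD2A by 0.67 (estimate -0.67 ± 0.20, 0.0157) and LOXL1 by 0.90 (estimate -0.90 ± 0.10, 3.3e-05). OIP5-AS1, a conserved RNA known in zebrafish as cyrano and named here after its values were seen, read 9.12, 9.32, 9.07 and 9.05 on 225225_at, against 10.13, 10.25, 10.06 and 10.18 in control cells (-0.95 ± 0.11, 5.13e-05), and was -0.67 ± 0.11 on 225332_at (0.000601) and -0.46 ± 0.13 on 231808_at (0.0117; 0.115 without control 0 hr, and -0.27 and 0.344 without emetine 0 hr). No emetine array of these 3 genes on the probe sets given by array reached the lowest control array.

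NR2F1-AS1, antisense to the gene of a nuclear receptor, was the highest. It read 8.52, 8.32, 8.11 and 8.35 in emetine, against 6.16, 6.52, 6.38 and 6.79 in control cells, 4.69-fold at DRB addition (2.23 ± 0.18, adjusted p = 2.91e-06, limma). The groups did not overlap. It was 0.97 ± 0.18 higher in UPF1-depleted cells (0.00446), a call that ended without the 0 hr array of control (0.215) or of UPF1-depleted cells (0.0802). LINC00163 read 7.47, 7.94, 7.80 and 7.52 in emetine, against 5.33, 6.43, 6.35 and 6.38 in control cells (2.01 ± 0.13, 5.96e-07). SH3BP5-AS1 read 7.97, 7.98, 7.56 and 7.31, against 6.35, 5.99, 5.75 and 5.59 in control cells (1.77 ± 0.14, 3.41e-06). Neither overlapped with control, and SH3BP5 was lower (-0.51 ± 0.11, 0.0022), opposite to its antisense gene. PSMD6-AS2 began 1.24 ± 0.18 higher (0.000228) and ended below control by 4.5 hr, as given above.

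LINC00470 and LINC00662 differed between their probe sets or over time. LINC00470 223977_s_at read 10.57, 10.07, 9.18 and 8.56 in emetine, against 9.00, 8.56, 8.59 and 8.30 in control cells: far apart at 0 hr and close by 4.5 hr. Its level difference was 1.72 ± 0.19 (adjusted p = 2.47e-05, limma), while 224181_at of the same gene was lower (-0.43 ± 0.13, 0.0205; 0.239 without control 0 hr, and -0.02 and 0.926 without emetine 0 hr). LINC00662 236653_at read 9.01, 7.80, 7.24 and 7.03 in emetine and 9.18, 6.87, 6.68 and 6.84 in tunicamycin, against 7.40, 6.40, 6.70 and 6.56 in control cells. It was 1.65 ± 0.27 higher in emetine (0.000507), called without each array. In tunicamycin it was 1.37 ± 0.27 higher (0.0209), a value that rested on the tunicamycin 0 hr array: without it the difference was 0.39 (0.523), and the call also ended without control 0 hr (0.343) or 1.5 hr (0.0505).

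Over the members, 42 were higher in emetine (10.5% of 400; background 21.2%) and 114 lower (28.5%; background 23.8%). Of these 156 calls, 59 on 52 genes held without each array in turn, 14 of them higher. These counts do not set aside members that passed the signal rule through emetine arrays alone. Among 48 antisense or intronic genes with a call and a measured partner, the partner was called in the same direction for 12, in the opposite direction for 12 and not called for 24. Over all probe sets 21.2% were called higher and 23.8% lower in this comparison. Of 62 genes with several member probe sets, 16 had all of them called in 1 direction, 22 had some called, 3 had calls in both directions (LINC00470, LINC01128 and LINC02987) and 21 had none. Slope calls within emetine numbered 17 among the members, against 95 to 121 in the other 4 conditions, and over all probe sets too they were fewest in emetine (0.194% risen and 1.69% fallen).

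**Figure D5:**
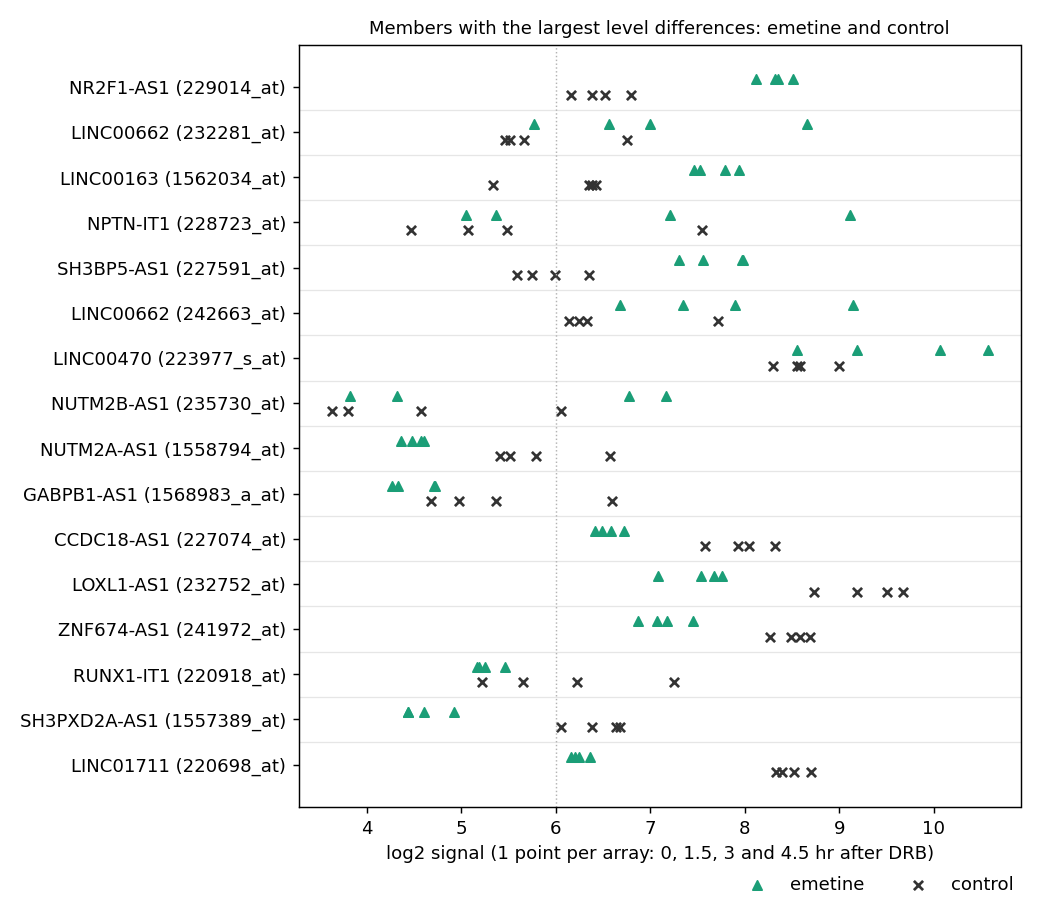
Log2 signal (horizontal axis) of the 8 highest and 8 lowest called members (vertical axis) in the 4 emetine arrays (triangles) and the 4 control arrays (crosses); the dotted line marks the signal rule at 6. NR2F1-AS1, LINC00163, SH3BP5-AS1, LINC01711, ZNF674-AS1, CCDC18-AS1, LOXL1-AS1, SH3PXD2A-AS1 and NUTM2A-AS1 separate fully, while both LINC00662 probe sets, NPTN-IT1, LINC00470, NUTM2B-AS1, RUNX1-IT1 and GABPB1-AS1 overlap with control. The members shown were picked by their difference in these same arrays, so their separation is partly set by the choice. The share of all probe sets without overlap was not counted.

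Few levels differed in tunicamycin, 9 members being higher (2.25% of 400; background 1.63%) and 3 lower (0.75%; background 1.06%), and none of the 12 calls held without each array in turn. Centred on ribosomal protein probe sets the counts were 4 (1%, background 1.43%) and 3 (0.75%, background 0.717%). Slopes differed more often: 15 members had a higher slope than in control cells (3.75%; background 3.93%) and 2 a lower one (0.5%; background 0.494%). These were largely members that fell in control cells. LINC02693 228146_at read 7.85, 8.02, 7.60 and 7.68 in tunicamycin, against 7.28, 7.03, 6.12 and 5.78 in control cells, so that every tunicamycin array lay above every control array, the gap widening with time. The slope difference was 0.30 ± 0.05 (adjusted p = 0.00397, limma), lost without control 0 hr (0.0552), tunicamycin 0 hr (0.104) or tunicamycin 4.5 hr (0.0666). NUTM2B-AS1 229318_at read 7.77, 8.08, 7.84 and 8.05, against 8.003, 7.88, 7.14 and 6.55 in control cells, a slope difference of 0.38 ± 0.06 (0.00359), lost without control 4.5 hr (0.0508), tunicamycin 0 hr (0.0616) or tunicamycin 4.5 hr (0.0811). KRT10-AS1 read 9.34, 9.65, 9.59 and 9.83, against 9.47, 9.48, 9.01 and 8.78 in control cells (0.26 ± 0.03, 0.00188), lost without tunicamycin 0 hr (0.0526). Of the 7 antisense or intronic genes with a slope call and a measured partner, no partner was called. Over all probe sets 3.93% had a called higher slope and 0.494% a called lower one.

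In hypoxia 19 members were lower (4.75% of 400; background 7.37%) and 11 higher (2.75%; background 3.62%). LINC02901 read 8.45, 8.57, 8.54 and 8.87 in hypoxia, against 9.62, 9.62, 9.53 and 9.63 in control cells. The groups did not overlap, and its difference of -1.19 ± 0.12 (2.28-fold lower, adjusted p = 0.000188, limma) was the only one of the 30 calls that held without each array in turn. LINC01029 read 6.90, 7.18, 6.79 and 6.75, against 5.69, 5.71, 5.78 and 5.54 in control cells, with no overlap between the groups. It was 1.29 ± 0.19 higher (0.00218; 0.0753 without control 0 hr). EP300-AS1, antisense to the gene of a histone acetyltransferase, was 1.08 ± 0.19 higher (0.00587; 0.157 without control 0 hr and 0.101 without hypoxia 0 hr), and EP300 differed by 0.33 ± 0.15 (0.175). PCBP1-AS1 235482_at read 7.84, 7.35, 7.17 and 6.90, against 6.89, 6.38, 6.06 and 6.07 in control cells (0.99 ± 0.14, 0.00165; 0.0645 without hypoxia 0 hr). Its groups stood just apart, at 6.90 in the last hypoxia array and 6.89 in the first control array. No slope difference between hypoxia and control cells passed the limma test among the members (background 0.00405% in each direction), and 33 had an unadjusted p under 0.05. Of 10 antisense or intronic genes with a level call and a measured partner, no partner was called. Over all probe sets 3.62% were called higher and 7.37% lower in this comparison.

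Some members moved alike in several conditions; the comparisons share the control arrays, so these values stand side by side and are not independent. LINC02901 read 8.94, 9.13, 8.99 and 9.24 in tunicamycin, 8.35, 8.37, 8.44 and 8.58 in emetine and 8.78, 8.69, 9.02 and 8.98 in UPF1-depleted cells, and every one of these arrays lay below every control array. Its level differences were -1.19, -0.65, -1.29 and -0.88 ± 0.12 in hypoxia, tunicamycin, emetine and UPF1-depleted cells (adjusted p = 0.000188, 0.0148, 9.21e-06 and 0.000962, limma); the tunicamycin call ended without the 0 hr array of control (0.221) or of tunicamycin (0.283). LINC00452 read 9.62, 9.77, 9.94 and 9.79 in hypoxia, 10.36, 10.53, 10.43 and 10.55 in tunicamycin, 9.56, 9.57, 9.56 and 9.62 in emetine, 9.90, 9.86, 9.83 and 9.80 in UPF1-depleted and 10.47, 10.60, 10.59 and 10.59 in control cells. Tunicamycin overlapped with control and the other 3 did not. The differences were -0.83, -0.11, -0.96 and -0.61 ± 0.10 (0.000672, 0.61, 2.06e-05 and 0.00272); the hypoxia call ended without hypoxia 0 hr (0.0613) and the UPF1-depleted call without the 0 hr array of control (0.0844) or of UPF1-depleted cells (0.071). ACTB 3′ minus 5′ was also higher than in control cells in hypoxia, emetine and UPF1-depleted cells and not in tunicamycin, and its part in the result was not tested.

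Other long noncoding RNAs and partner proteins were taken from lists, whose counts stand beside those over all probe sets: in emetine 21.2% were higher and 23.8% lower, in UPF1-depleted cells 10.6% were higher and 3.57% lower, and after DRB in control cells 13.6% rose and 18.4% fell. Of 16 measured lncRNAs with other names, 6 were higher and 1 lower in UPF1-depleted cells, with a median difference of 0.14, against 0.06 over all probe sets. SNHG32 and ZFAS1, both hosts of small nucleolar RNAs, were 1.40 ± 0.16 and 0.80 ± 0.09 higher (adjusted p = 0.000372 and 0.000273, limma), and UCA1 0.96 ± 0.13 (0.00101). In emetine 3 of the 16 were higher and 5 lower, among them SNHG32 at 1.95 ± 0.16 (4.34e-06) and NORAD, a cytoplasmic RNA that binds Pumilio proteins, at -0.62 ± 0.11 (0.00107). After DRB FTX and JPX, genes of the X inactivation centre, fell in control cells at -0.57 ± 0.07 and -0.31 ± 0.06 log2 per hr (adjusted p = 5.43e-05 and 0.00198, limma). Of 11 measured genes of the 7SK complex and P-TEFb, the kinase that DRB inhibits, 8 were higher and 1 lower in emetine at DRB addition, with a median of 0.50, against -0.08 over all probe sets; CCNT2, a cyclin subunit, was 1.56 ± 0.18 higher (4.13e-05). Of 10 RNase P and MRP protein genes, 0 were higher and 5 lower in emetine, with a median of -0.32, and 6 had a higher slope than in control cells, as did 11.7% of all probe sets. In emetine at DRB addition 5 were higher and 2 lower of 19 genes for paraspeckle proteins, 5 and 2 of 16 for nuclear speckle proteins, 4 and 5 of 18 for nuclear RNA decay and 0 and 1 of 50 for ribosomal proteins. After DRB in control cells the same lists had 1 risen and 5 fallen, 1 and 7, 1 and 5, and 1 and 0.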

How the data were processed

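RNA of U2OS cells was read on 20 single-colour 3′ expression arrays, 1 for each of 5 conditions and 4 times. The deposited intensity values were background-corrected, normalized and summarised by RMA, per the submitters' processing notes; the version is not given in the sources used here. They are on a linear scale and were turned into log2 with no pseudocount. The members and gene lists were chosen with earlier results of these data known. Of 54675 probe sets, 41097 had 1 gene symbol in the platform annotation, 1801 several and 11777 none; members carry 1 symbol each, and 299 of their 304 genes were in the RefSeq table. Array medians were 37.3 to 40.4 (linear signal), and arrays correlated at 0.930 to 0.996; the number of arrays limits the precision.

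The 24683 probe sets with log2 of 6 or more in at least 4 arrays were fitted with limma 3.58.1 in R 4.3.3 (lmFit, eBayes). Level and slope differences came from a model with time as a factor, condition and condition by linear time (8 residual degrees of freedom), slopes within a condition from 1 line per condition (10). Tests are two-sided, adjusted by Benjamini-Hochberg over all 24683 probe sets, threshold 0.05. The fits were tested on simulated data: for emetine, 84 of 100 level differences of 2 and 62 of 100 of size 1 (log2) were called, and 71 of 100 slope differences of 0.4 and 16 of 100 of 0.2 (log2 per hr), so that small slope differences were often missed there. Far fewer probe sets were changed in the simulation than were called in emetine, and its noise was independent between probe sets. These shares need not hold for the emetine arrays.

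Named members are all probe sets of MALAT1 and RPPH1, the 8 highest and 8 lowest called per difference, the steepest called slopes per condition, and the genes that antisense and intronic members are named after; members named outside this rule were chosen after their values were seen, mostly because their calls held without each array. Members picked by their difference were picked from the same arrays, so a lack of overlap between groups is partly set by the choice. Partner genes and the lists (other lncRNAs, paraspeckle and nuclear speckle proteins, P-TEFb and the 7SK complex, RNase P and MRP proteins, nuclear RNA decay, ribosomal proteins) were given by 1 probe set a gene. Alternatives were quantile normalization, centring on ribosomal protein probe sets, other filters, 1 probe set per gene, trended robust variance, no shared time factor and each array left out, the last of these for members only. Probe strand and position were not analysed here.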

Additional observations from a re-analysis of the deposited data

Results flagged for a closer look

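In 3 cases 1 array of a condition stood far from its other 3 by Dixon's test. The test takes the arrays as repeats, for which chance does this in about 1 in 20 groups. Here the arrays are different DRB times, so that rate does not hold. An odd array cannot be told apart from a change with time. The members' median log2 signal was 6.75 in tunicamycin at 4.5 hr, the number of members at log2 6 or more was 315 in tunicamycin at 0 hr, and it was 332 in UPF1-depleted cells at 4.5 hr. The part of these arrays in the results was not tested beyond leaving each out. For 2 members the slope within tunicamycin and within control cells had opposite signs, both called, and the difference itself passed the test: KRT10-AS1, with a slope difference of 0.26 log2 per hr, and ZNF790-AS1, with 0.29 log2 per hr (adjusted p = 0.0137, limma; 0.2 without control 0 hr, 0.102 without tunicamycin 0 hr and 0.191 without tunicamycin 4.5 hr).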

How the results depend on the processing

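Counts of called members moved by over 1.5 times under these settings. For levels, hypoxia had 13 with no filter and 17 without the replicate block (the shared time factor), against 30; tunicamycin had 7 when centred on ribosomal proteins, 5 with the 40th percentile filter, 5 with no filter and 2 without the block, against 12; emetine had 102 at a log2 minimum of 7, against 156. For slope differences, tunicamycin had 10 centred, 9 with no filter and 11 without the block, against 17; emetine had 20 without the block, against 34. For slopes, tunicamycin had 55 centred, against 95; emetine 9 with 1 probe set per gene and 11 at log2 7, against 17; UPF1-depleted cells 161 with quantile normalization and 62 at log2 7, against 102; control cells 80 at log2 7, against 121. Without the block the calls of THAP9-AS1 (adjusted p = 0.0928) and LINC00662 236653_at (0.289) in tunicamycin, MALAT1 224568_x_at in hypoxia (0.0504), RPPH1 in UPF1-depleted cells (0.0788), and NPTN-IT1 in emetine (0.0705) ended. Leaving out 1 array gave 4 to 33, 0 to 11, 81 to 160 and 16 to 70 level calls in hypoxia, tunicamycin, emetine and UPF1-depleted cells, 0 to 0, 1 to 16, 13 to 37 and 0 to 0 slope difference calls, and 27 to 94, 5 to 106, 1 to 17, 24 to 92 and, in control cells, 28 to 141 slope calls. Of 2163 recomputed values for 145 named results, 1825 stayed on their side of the threshold and 338 did not, with no change of direction; the cause was not tested. One array per condition and time, and members near background, limit these results.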
